A study of Saccharomyces cerevisiae with 72 samples.

Results

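The histone genes of budding yeast were described through premeiotic growth and meiotic entry. They were taken by systematic name as *HTA1* (YDR225W), *HTB1* (YDR224C), *HTA2* (YBL003C), *HTB2* (YBL002W), *HHT1* (YBR010W), *HHF1* (YBR009C), *HHT2* (YNL031C), *HHF2* (YNL030W), *HTZ1* (YOL012C) and *HHO1* (YPL127C). Of these 10 genes, 9 were measured among 5498 RNA-seq features, and *HHF2* was not analysed here. All strains were SK1 diploids in which copper turns on *IME1*, the master regulator of meiotic entry, and *IME4*, both from the *CUP1* promoter (*pCUP1-IME1/pCUP1-IME4*). Poly(A) RNA was sequenced from strain UB22629, which carries *UME6(T99N)-3V5* (called T99N), and from strain UB20649, which carries *UME6-3V5* (called WT), after 0, 2, 3 and 4 h in sporulation medium (SPO), with 3 libraries for each strain and time. The T99N change blocks the binding of the regulator Ume6 to Ime1. CuSO4 was added to 50 μM after 2 h, so that 0 h and 2 h preceded induction and 3 h and 4 h followed it. In WT both *IME1* and *IME4* carried a 3HA tag, whereas in T99N *IME4* was untagged. Each strain is 1 line, so that the allele and any other difference between the lines cannot be told apart. A further strain, UB14584 (with no *UME6* tag listed, and with the *AMN1* allele of BY4741), gave RNA-seq (2 libraries at each time) and transcript leader sequencing (TL-seq, which reads the 5′ ends of mRNAs) at 4 h and 2 h.

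Histones package DNA into nucleosomes, each built from a pair each of H2A, H2B, H3 and H4. Yeast transcribes most of these genes as divergent pairs, H2A beside H2B and H3 beside H4, and does so mainly in S phase, when new DNA must be wrapped, while the HIR complex represses most of the pairs outside S phase. Entry into meiosis brings a premeiotic S phase, so that histone mRNAs mark its timing. *HTZ1* encodes the variant H2A.Z and *HHO1* the linker histone H1, neither of which belongs to the divergent pairs.

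In the SK1 assembly used for the files, *HTA2* (II:249003-249401, minus strand) and *HTB2* (II:250100-250495, plus) faced away from each other across 698 bp. *HTB1* (IV:890642-891037, minus) and *HTA1* (IV:891854-892252, plus) did so across 816 bp. *HHF1* (II:268980-269291, minus) and *HHT1* (II:269939-270349, plus) were 647 bp apart. *HHT2* (XIV:604390-604800, plus), *HTZ1* (XV:284252-284656, minus) and *HHO1* (XVI:308920-309696, minus) were taken singly. Since *HHF2*, the other H4 gene, was not analysed here, no interval that *HHT2* may share with it was described. These coordinates are those of the annotated coding regions.

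Libraries held 5013205 to 10368422 reads in T99N, 9087102 to 20865934 in WT and 3124472 to 4845107 in UB14584. Counts were scaled by the trimmed mean of M values (TMM) and are given as CPM (counts relative to the scaled library total), which serve to compare libraries. Without TMM the median of all features moved by 0.61 (log2) between WT at 3 h and 2 h, by 0.37 between WT at 4 h and 2 h and by −0.28 between the strains at 3 h, so every change below is relative to the typical gene. Ahead of copper, T99N replicate 1 at 2 h stood apart with *IME1* at 1870.5 CPM, against 74.5 and 91.2 in the other T99N libraries at 2 h. Its 10 S-phase genes summed to 1534 CPM, against 717 and 706 in the others. The summed early meiotic genes were lower in it, at 751 CPM, against 905 and 887, and against 754 to 844 in T99N at 3 h. *UME6* was lower in it as well, at 486 CPM, against 780 and 785, and against 487 to 723 in T99N at 3 h. After copper *IME1* was at 1649 to 3670 CPM in T99N and 694 to 1320 in WT at 3 h, and at 5309 to 5823 in T99N and 2514 to 3944 in WT at 4 h. *UME6* itself was at 461 to 785 CPM in T99N over all times, and in WT at 987 to 2378 after and 124 to 230 before copper. No source states that replicates came from separate cultures, so the p-values measure the spread between these libraries, which may be technical.

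Levels of different genes were compared in TPM, which corrects for gene length and library size. In WT at 3 h, *HHF1* (H4) had the highest mean TPM of the 9 genes, 13550 ± 954 TPM (SD, n = 3, as for the others). *HTB1* (H2B) followed with 3851 ± 303, *HHT2* (H3) with 3384 ± 1457, *HTA1* (H2A) with 2669 ± 159 and *HTB2* (H2B) with 2503 ± 423, and the ranges of each neighbouring pair among these 4 genes overlapped. *HHT1* (H3) had 1489 ± 302 and *HTA2* (H2A) had 555 ± 19.4, each separate from its neighbours in this order. *HHO1*, at 281 ± 34.4, and *HTZ1*, at 265 ± 68.9, were lowest and overlapped each other. The lead of *HHF1* rests in part on the length used, since its effective length was 62.487 bp, against 146 to 161 bp for the other core histone genes and 527 bp for *HHO1*. On the RPKM scale, which uses the coding length, it still led *HTB1*, at 5208 against 2757. Other groups had another order. In T99N *HHT2* had the highest mean at every time on both scales, at 3 h with 1492 TPM, against 1172 TPM for *HHF1*. By RPKM *HTB1* led in WT at 0 h and 2 h, at 1225 and 737, against 841 and 577 for *HHF1*. *HHF2* encodes the same H4 protein and was not analysed here, and whether any of its reads were counted to *HHF1* was not tested. The 9 genes took 0.12% ± 0.01 of all reads in T99N at 3 h and 0.62% ± 0.04 in WT at 3 h (SD, n = 3 each).

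Before copper, part of the histone mRNAs fell over the first 2 h in SPO in both strains. In T99N, 6 of the 9 genes fell between 0 h and 2 h, where 20.1% of all features did. *HTA1* was at 169, 140.0 and 161 CPM in T99N at 2 h, against 348, 299 and 321 at 0 h (log2 fold change −1.04, SE 0.13, adjusted p = 1.47e-06, edgeR quasi-likelihood test). Every library at 2 h lay below every library at 0 h. *HHT1* had the largest fall in T99N, at 38.1, 24.6 and 23.3 CPM at 2 h, against 65.8, 59.1 and 71.5 at 0 h (log2 fold change −1.18, SE 0.29, adjusted p = 0.0025). *HTA2* (−0.98), *HHF1* (−0.92), *HTB1* (−0.80) and *HHT2* (−0.60) fell as well on the log2 scale. The *HHT2* call was lost without T99N replicate 1 at 2 h (−0.57, adjusted p = 0.068) and without replicate 1 or 2, and the *HHT1* call without replicate 2 (−1.16, adjusted p = 0.056), whereas *HTB2* was called lower without T99N replicate 1 at 2 h (−0.74, adjusted p = 0.043). In WT, 3 of the 9 genes fell (25.0% of all features did) and 1 rose (25.1%). These were *HTA1* (−0.92), *HTB1* (−0.61) and *HHF1* (−0.41) on the falling side, and *HHO1* (0.39) on the rising side. *HTA1* had 251, 232 and 246 CPM in WT at 2 h, against 464, 476 and 437 at 0 h (log2 fold change −0.92, SE 0.13, adjusted p = 4.86e-06). The change of *HHO1* was not called without TMM, without replicate 1 or without replicate 2, that of *HTB1* was not called without replicate 2, and that of *HHF1* was not called without replicate 2 or replicate 3, whereas *HHT1* was called lower without replicate 3 (−0.66, adjusted p = 0.0058). Fewer cells expressing a gene and less mRNA per cell cannot be told apart in such bulk samples, here or below. The share of the members that fell was above the background in T99N and near it in WT.

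In the first hour after copper, from 2 h to 3 h, edgeR called none of the 9 histone genes in T99N in either direction, where 1.17% of all features rose and 3.35% fell. At an unadjusted p under 0.05 there was 1 member, *HTB2*, and DESeq2 called 0. *HTB2* was at 35.5, 52.9 and 36.5 CPM in T99N at 3 h, against 42.0, 18.7 and 19.9 at 2 h (log2 fold change 0.61, SE 0.28, adjusted p = 0.21, edgeR quasi-likelihood test). The highest of these 2 h libraries is replicate 1, the one with high *IME1*. Without that library *HTB2* rose, by 1.11 on the log2 scale (adjusted p = 0.0073, edgeR), and 1 of 9 genes was then called. *HHT2* had the lowest value of the 9, at 368, 476 and 327 CPM at 3 h, against 413, 426 and 458 at 2 h (log2 fold change −0.15, SE 0.21, adjusted p = 0.75), and the groups overlapped.

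Between 3 h and 4 h in T99N, the *HTA2*-*HTB2* pair rose, 2 of 9 genes, where 4.99% of all features did. *HTB2* was at 66.8, 82.8 and 75.7 CPM at 4 h, against 35.5, 52.9 and 36.5 at 3 h (log2 fold change 0.85, SE 0.27, adjusted p = 0.040). *HTA2* was at 18.3, 19.0 and 20.7 CPM at 4 h, against 11.3, 10.8 and 9.53 at 3 h (log2 fold change 0.88, SE 0.21, adjusted p = 0.0056). Neither pair of groups overlapped, but the *HTB2* call was lost on leaving out any 1 replicate and the *HTA2* call without replicate 2 (adjusted p = 0.053). From 2 h to 4 h, 3 of 9 genes rose in T99N, where 11.2% of all features did. These were *HTB2* (1.46), *HTA2* (1.01) and *HHO1* (0.47, adjusted p = 0.031, edgeR), on the log2 scale. *HHO1* was at 139.9, 135 and 122 CPM at 4 h, against 92.5, 89.9 and 103 at 2 h. *HHO1* was not called without T99N replicate 1 at 2 h (0.45, adjusted p = 0.061), on leaving out any 1 replicate of every group, or in a fit of the 12 libraries of 2 h and 4 h (0.49, adjusted p = 0.052). Without replicate 2 none of the 3 was called, with adjusted p of 0.056 (*HTA2*), 0.066 (*HTB2*) and 0.25 (*HHO1*). *HHF1* and *HTA1*, which were not called in T99N after copper, lay between 109.7 and 134 CPM and between 140.0 and 181 CPM over the T99N libraries of 2, 3 and 4 h.

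In WT, all 9 histone genes rose in the first hour after copper, where 35.0% of all features did. The median log2 fold change of the 9 genes was 1.33, against 0.05 over all 5488 features tested. The sizes differed widely, and the largest were those of the *HTA2*-*HTB2* pair and of *HHF1*. *HTB2*, one of the H2B genes, was at 594, 652 and 393 CPM at 3 h, against 46.4, 51.8 and 48.6 at 2 h, which is 11.2-fold (log2 fold change 3.48, SE 0.29, adjusted p = 7.95e-10, edgeR quasi-likelihood test). *HTA2*, its divergent H2A partner, was at 136, 123 and 108 CPM at 3 h, against 19.1, 21.2 and 17.6 at 2 h, which is 6.34-fold (log2 fold change 2.66, SE 0.19, adjusted p = 1.02e-10). *HHF1*, the H4 gene, was at 1296, 1247 and 1199 CPM at 3 h, against 223, 211 and 200.4 at 2 h, which is 5.90-fold (log2 fold change 2.56, SE 0.15, adjusted p = 3.19e-12). In all 3 genes the lowest library at 3 h was far above the highest at 2 h.

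The other core histone genes of WT rose by less between 2 h and 3 h. *HHT1*, the H3 partner of *HHF1*, was at 379, 446 and 251 CPM at 3 h, against 92.3, 109 and 148 at 2 h (log2 fold change 1.62, SE 0.28, adjusted p = 2.33e-05). *HHT2*, the second H3 gene, was at 642, 640.0 and 1069 CPM at 3 h, against 289, 273 and 373 at 2 h (log2 fold change 1.33, SE 0.22, adjusted p = 1.28e-05). Replicate 3 was the lowest of the 3 libraries for *HHT1* and the highest for *HHT2* at 3 h. *HTB1* was at 954, 882 and 674 CPM at 3 h, against 361, 332 and 333 at 2 h (log2 fold change 1.29, SE 0.16, adjusted p = 4.46e-07). *HTA1*, its H2A partner, was at 618, 585 and 556 CPM at 3 h, against 251, 232 and 246 at 2 h (log2 fold change 1.27, SE 0.13, adjusted p = 1.51e-08). This pair thus moved together, by 2.45-fold and 2.41-fold. The H2A.Z and H1 genes had the smallest changes of the 9. *HTZ1* was at 56.2, 53.1 and 69.9 CPM at 3 h, against 33.8, 42.2 and 41.6 at 2 h (log2 fold change 0.61, SE 0.14, adjusted p = 0.000834), and *HHO1* at 202, 242 and 209.7 CPM, against 96.1, 157 and 124 (log2 fold change 0.79, SE 0.16, adjusted p = 0.000123). For each of the 9 genes the libraries of 3 h and 2 h did not overlap, which held for a rise at 34.2% of all features.

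The makeup of the H2A and H2B mRNAs was followed as the share of the less expressed gene of each type. In T99N, *HTB2* made up 16.2% ± 2.01 of the summed CPM of *HTB1* and *HTB2* at 3 h and 11.7% ± 3.45 at 2 h, and *HTA2* 6.07% ± 0.41 of the *HTA1* and *HTA2* sum at 3 h and 5.68% ± 0.67 at 2 h (SD, n = 3 each). In WT, *HTB2* made up 39.2% ± 2.92 at 3 h and 12.5% ± 1.06 at 2 h (SD, n = 3 each). *HTA2* made up 17.2% ± 0.91 at 3 h and 7.38% ± 0.89 at 2 h (SD, n = 3 each). At 4 h *HTB2* made up 25.9% ± 1.67 in T99N and 32.9% ± 2.90 in WT, and *HTA2* 10.7% ± 0.85 in T99N and 11.7% ± 1.197 in WT (SD, n = 3 each). No difference in these shares was tested. Taken as sums, H2A mRNA in WT was 2.70-fold higher at 3 h than at 2 h and H2B mRNA 3.54-fold higher, given without a test.

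Between 3 h and 4 h in WT, 3 core histone genes fell, and *HTZ1* and *HHO1* rose. Those that fell were *HTA2*, *HHT1* and *HHF1*, where 18.1% of all features did. The rise of *HTZ1* and *HHO1*, 2 of 9 genes, was near the share of all features that rose, 20.6%. *HTA2* was at 74.2, 94.0 and 48.3 CPM at 4 h, against 136, 123 and 108 at 3 h (log2 fold change −0.76, SE 0.18, adjusted p = 0.0017, edgeR quasi-likelihood test). *HHF1* was at 967, 1172 and 731 CPM at 4 h, against 1296, 1247 and 1199 at 3 h (log2 fold change −0.38, SE 0.14, adjusted p = 0.031). Both genes had every library at 4 h below every library at 3 h. *HHT1*, whose libraries overlapped between the times, was at 290.0, 239.5 and 99.8 CPM at 4 h, against 379, 446 and 251 at 3 h (log2 fold change −0.77, SE 0.27, adjusted p = 0.027). *HTZ1* was at 109.5, 132 and 130.4 CPM at 4 h, against 56.2, 53.1 and 69.9 at 3 h (log2 fold change 1.05, SE 0.14, adjusted p = 5.39e-06). *HHO1* was at 338, 347 and 254 CPM at 4 h, against 202, 242 and 209.7 at 3 h (log2 fold change 0.52, SE 0.15, adjusted p = 0.0098), again with no overlap. The remaining genes had log2 fold changes of −0.46 (*HTB2*), −0.34 (*HHT2*), −0.13 (*HTA1*) and −0.09 (*HTB1*), with adjusted p between 0.16 and 0.70. *HTB2* and *HHT2* were lower at 4 h in each of the 3 same-numbered pairs of WT libraries, whose deviations from their group means correlated over 0.1 in every pair (0.39, 0.60 and 0.82). A fit with the replicate number as a block within WT at 3 h and 4 h was chosen after these correlations were seen. In it edgeR also called *HTB2* (−0.50, adjusted p = 0.043) and *HHT2* (−0.36, adjusted p = 0.031), which made 5 genes. The share of all features called in that fit is not given here. Without TMM *HTB2* also fell (−0.72, adjusted p = 0.042) and the rise of *HHO1* was not called (0.28, adjusted p = 0.11). The *HHF1* call was lost on leaving out any 1 of the 3 replicates, the *HHO1* call without replicate 1 or 2, and the *HHT1* call without replicate 2. Set against 2 h, all 9 genes were still higher at 4 h in WT, where 34.2% of all features were, with log2 fold changes of 0.85 (*HHT1*) to 3.02 (*HTB2*). The *HHT1* call at 4 h was not kept without replicate 1 (0.37, adjusted p = 0.36) or replicate 2 (0.70, adjusted p = 0.15).

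**Figure D1:**
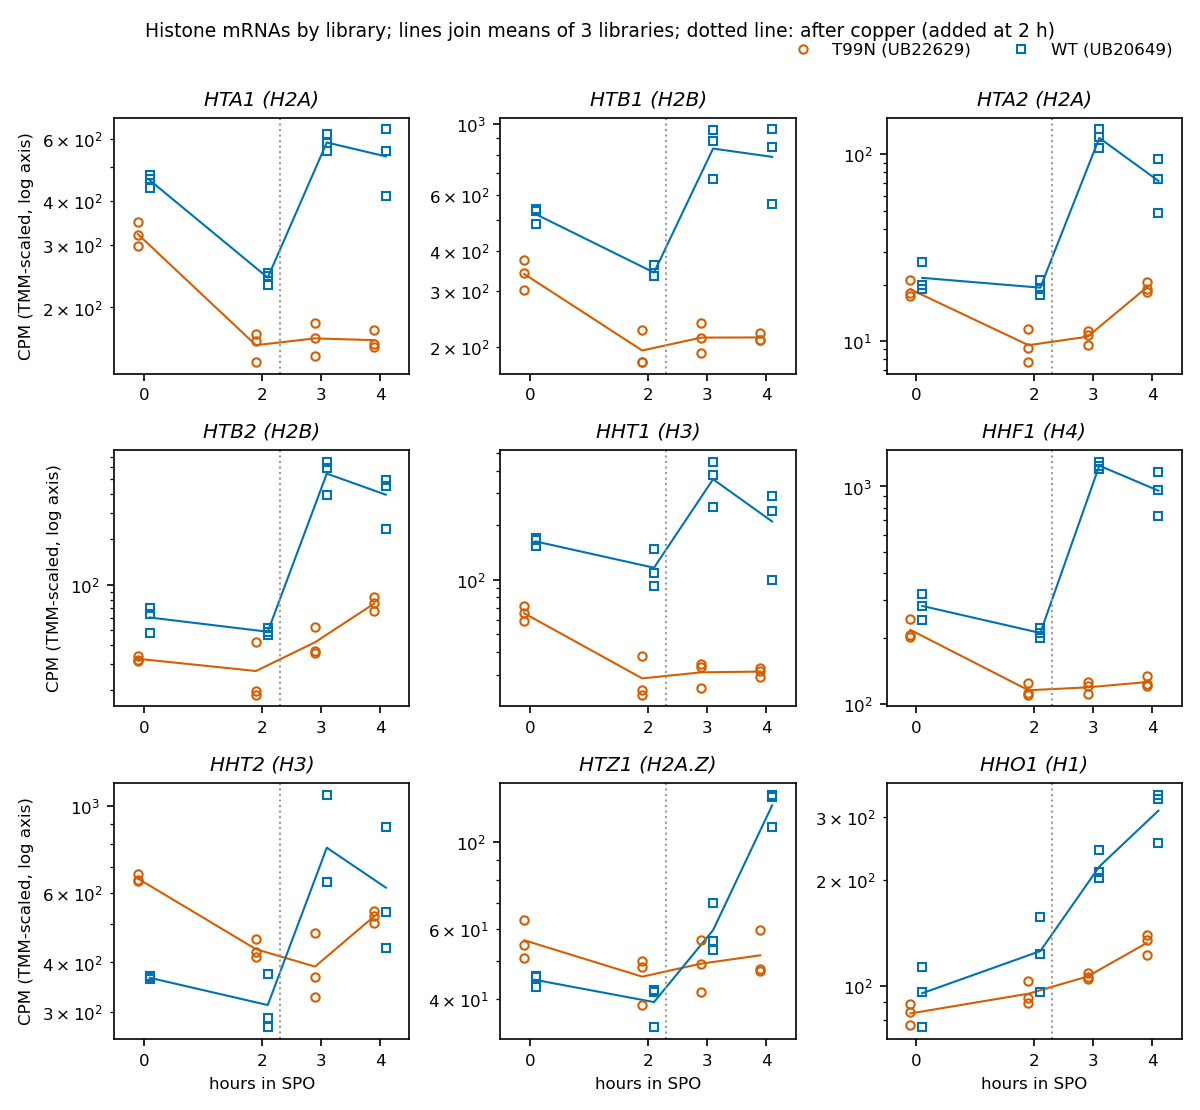
CPM (TMM-scaled, log axis) of the 9 histone genes against hours in SPO in T99N (circles) and WT (squares), 1 point per library, with lines through the means of 3 libraries and copper added after the 2 h collection. In T99N *HTB2* sat at 35.5 to 52.9 CPM at 3 h, whereas in WT it sat at 393 to 652 at 3 h, above all 2 h libraries (46.4 to 51.8).

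The strains already differed before induction. At 0 h, 5 of 9 histone genes were lower in T99N than in WT, where 18.6% of all features were, and 1 was higher, where 18.4% were. *HHT1* was at 65.8, 59.1 and 71.5 CPM in T99N, against 154, 165 and 169.6 in WT (log2 fold change −1.31, SE 0.28, adjusted p = 0.0017, edgeR quasi-likelihood test). The gene on the other side was *HHT2*, at 648, 643 and 671 CPM in T99N, against 368, 363 and 366 in WT (log2 fold change 0.84, SE 0.21, adjusted p = 0.0052). The libraries of the strains did not overlap for either H3 gene. *HTB2* (−0.91), *HTB1* (−0.62), *HTA1* (−0.51) and *HHF1* (−0.37) were also lower in T99N on the log2 scale. None of these calls at 0 h was kept without replicate 2, the *HHT2* call was lost without replicate 1, and the *HHF1* call without replicate 3 or without TMM.

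At 2 h, 7 of 9 genes were lower in T99N than in WT, where 20.9% of all features were. *HHT1* was at 38.1, 24.6 and 23.3 CPM in T99N, against 92.3, 109 and 148 in WT, the largest difference of the 9 at this time (log2 fold change −2.02, SE 0.29, adjusted p = 8.04e-05). *HTA2* (−1.003), *HHF1* (−0.88), *HTB2* (−0.85), *HTB1* (−0.81), *HTA1* (−0.63) and *HHO1* (−0.40) were lower as well. *HHT2* (0.47, adjusted p = 0.079) and *HTZ1* (0.21, adjusted p = 0.25) were not called. The *HHO1* call was lost without T99N replicate 1 at 2 h (−0.38, adjusted p = 0.096), without replicate 2 or 3, and in the fit of the 12 libraries of 2 h and 4 h. Without replicate 2 of every group the *HTB2* (−0.62) and *HTA2* (−0.82) calls were lost too, which left 4 genes, and without replicate 3 the *HTB2* call was lost (−0.65). Without TMM *HTB2* (−0.65, adjusted p = 0.087) and *HHO1* (−0.22, adjusted p = 0.22) were not called and *HHT2* was higher in T99N (0.61, adjusted p = 0.039), as it was without replicate 3 (0.58, adjusted p = 0.011).

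At 3 h, 8 of 9 genes were lower in T99N than in WT, where 29.4% of all features were. The median over the 9 genes was −1.97 on the log2 scale, against −0.01 over all features, and was −0.37, −0.81 and −1.88 for the 9 genes at 0 h, 2 h and 4 h. *HTB2* was at 35.5, 52.9 and 36.5 CPM in T99N, against 594, 652 and 393 in WT (log2 fold change −3.71, SE 0.29, adjusted p = 1.1e-09, edgeR quasi-likelihood test). *HTA2* was at 11.3, 10.8 and 9.53 CPM in T99N, against 136, 123 and 108 in WT (log2 fold change −3.54, SE 0.21, adjusted p = 1.74e-11). *HHF1* was at 126, 120.0 and 110.3 CPM in T99N, against 1296, 1247 and 1199 in WT (log2 fold change −3.39, SE 0.15, adjusted p = 4.9e-13). Each of these genes was thus more than 10-fold lower in T99N. *HHT1*, the H3 partner of *HHF1*, was at 34.2, 33.3 and 25.3 CPM in T99N, against 379, 446 and 251 in WT (log2 fold change −3.54, SE 0.30, adjusted p = 3.47e-09). *HTB1* (−1.97) and *HTA1* (−1.84) differed by less, as did *HHO1* (−1.03) and *HHT2* (−1.004). *HTZ1* was not called (−0.28, adjusted p = 0.099), though it was lower in T99N without TMM (−0.56, adjusted p = 0.0052).

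At 4 h, 8 of 9 genes were lower in T99N than in WT, where 30.2% of all features were. Now *HHF1* had the largest difference, at 123, 134 and 120.0 CPM in T99N, against 967, 1172 and 731 in WT (log2 fold change −2.93, SE 0.15, adjusted p = 3.51e-12). *HTZ1* had joined the lower genes, at 47.1, 59.9 and 47.7 CPM in T99N, against 109.5, 132 and 130.4 in WT (log2 fold change −1.27, SE 0.14, adjusted p = 3.46e-07). *HHT2* was the gene not called at 4 h, at 505, 539.7 and 526 CPM in T99N, against 537, 436 and 887 in WT (log2 fold change −0.24, SE 0.21, adjusted p = 0.35), and WT replicate 3 was the highest of its 6 libraries. The others lay between −2.75 (*HHT1*) and −1.24 (*HHO1*), with *HTB2* at −2.40, *HTA2* at −1.90, *HTB1* at −1.88 and *HTA1* at −1.73. Of the comparisons between the strains, those at 3 h and 4 h kept their 8 calls on leaving out each replicate in turn, and *HHT2* at 4 h turned positive without replicate 3 (0.10, adjusted p = 0.60).

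Because the strains differed before copper, the change after it was compared as an interaction, the log2 fold change in T99N minus that in WT. From 2 h to 3 h the interaction was negative and called at 8 of 9 genes, where 21.9% of all features were lower in the same way. It was −2.87 for *HTB2* (SE 0.39, adjusted p = 4.42e-06), −2.54 for *HTA2* (SE 0.29, adjusted p = 3.67e-07) and −2.52 for *HHF1* (SE 0.20, adjusted p = 2.04e-09). *HHT1* (−1.52), *HHT2* (−1.48), *HTA1* (−1.21), *HTB1* (−1.16) and *HHO1* (−0.63) followed. *HTZ1* was not called (−0.49, adjusted p = 0.056), but was so without T99N replicate 1 at 2 h (−0.60, adjusted p = 0.024). The *HHO1* call was lost without replicate 1 or 3 and the *HHT1* call without replicate 1 or 2. From 2 h to 4 h the interaction was negative and called at 7 of 9 genes, where 20.6% of all features were. *HHF1* (−2.06) had the largest value, then *HTB2* (−1.56), *HTZ1* (−1.48), *HTA1* (−1.10), *HTB1* (−1.07), *HTA2* (−0.90) and *HHO1* (−0.84). The H3 genes were not called at 4 h, with −0.73 for *HHT1* (adjusted p = 0.15) and −0.72 for *HHT2* (adjusted p = 0.063), though both were without TMM. Without T99N replicate 1 at 2 h *HTA2* lost its call at 4 h (−0.72, adjusted p = 0.067), and without replicate 2 as well. Without replicate 1 of every group the *HTA2*, *HTB2* and *HHO1* calls were lost, which left 4 genes, and *HHT1* turned to 0.10. Without replicate 3 *HHT1* was called (−1.46, adjusted p = 0.0008).

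**Figure D2:**
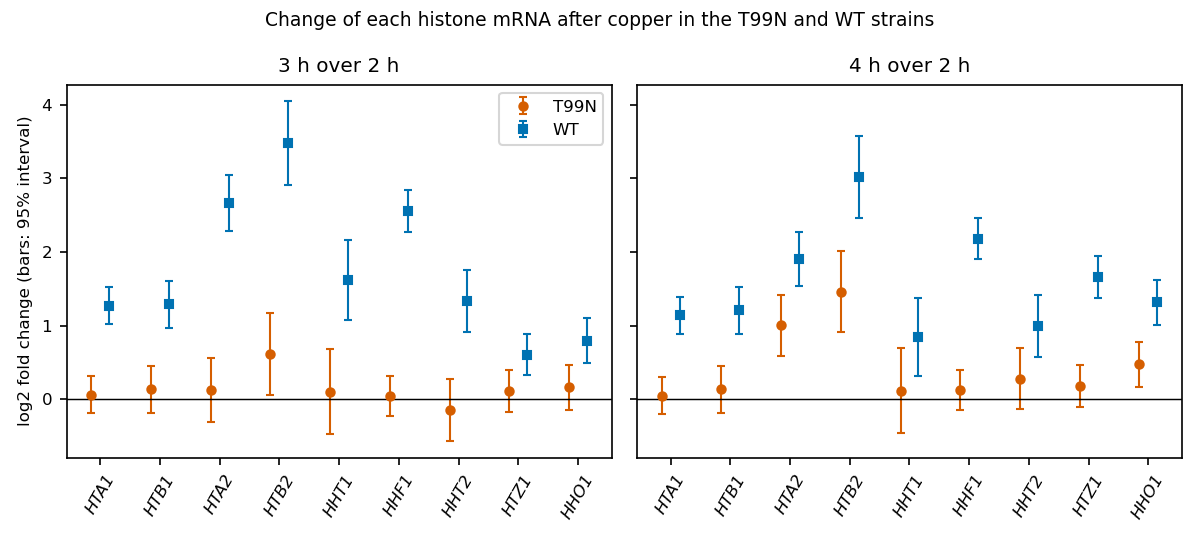
Log2 fold change of each histone gene from 2 h to 3 h (left) and from 2 h to 4 h (right) in T99N (circles) and WT (squares). Bars show a normal 95% interval (1.96 SE on either side), which is narrower than the limits of the test. *HTB2* in T99N at 3 h was not called, though its bar lies above 0. In T99N *HTA2*, *HTB2* and *HHO1* at 4 h are the genes that were called, whereas in WT all 9 genes lie above 0 in both panels.

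The 2 H3 genes encode the same protein, and their split in the counts needs care. Estimated counts of *HHT1* and *HHT2* were not whole numbers in 15 of the 24 libraries, whereas their sum was whole in all 24, so that reads were shared out between them. *HHT2* made up 90.4% to 95.2% of the summed CPM in the 12 T99N libraries, and 58.9% to 89.9% in the 12 WT libraries, so that the strains did not overlap. WT replicate 3 had the highest *HHT2* share at 3 h and 4 h, 81.0% and 89.9%, against 58.9% to 65.0% in the other WT libraries of these times. The sum showed the same order of strains after copper. It averaged 421 ± 80.2 CPM in T99N and 1142 ± 157 CPM in WT at 3 h (SD, n = 3 each), with no overlap, and 555 ± 18.8 CPM in T99N and 829.8 ± 156 CPM in WT at 4 h (SD, n = 3 each), again with none. At 2 h the sums overlapped, at 461 ± 17.3 CPM in T99N and 428 ± 80.5 CPM in WT (SD, n = 3 each), and at 0 h T99N was higher, at 719 ± 20.4 CPM, against 528 ± 6.47 CPM in WT (SD, n = 3 each). The lower *HHT1* in T99N before copper was therefore not seen in the sum of the H3 genes.

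In UB14584 all 9 histone genes were higher at 4 h than at 2 h, where 26.6% of all features were. *HHF1* was at 5738 and 4293 CPM at 4 h, against 338 and 1101 at 2 h (log2 fold change 2.80, SE 0.58, adjusted p = 0.0084, edgeR quasi-likelihood test). *HTB2* was at 899.5 and 747 CPM at 4 h, against 34.1 and 219.6 at 2 h (log2 fold change 2.70, SE 0.75, adjusted p = 0.024). *HTZ1* was at 158 and 138 CPM at 4 h, against 36.02 and 52.5 at 2 h (log2 fold change 1.74, SE 0.20, adjusted p = 0.000921). In each of these genes both 4 h libraries exceeded both 2 h libraries. The other log2 fold changes were 2.15 (*HTA1*), 2.11 (*HTA2*), 1.75 (*HTB1*), 1.71 (*HHT1*), 1.69 (*HHO1*) and 1.45 (*HHT2*), and DESeq2 called all but *HTA2* (adjusted p = 0.0996). The 2 h libraries differed in every histone gene, and replicate 5 was the higher one throughout. *HTB2* was at 34.1 CPM in replicate 4 and at 219.6 in replicate 5 at 2 h, and *HHF1* at 338 and 1101. The S-phase genes summed to 963 CPM in replicate 4 and 1477 in replicate 5, *IME1* was at 745 and 1081, and the early meiotic genes summed to 225 and 187. What part this had in the fold changes was not tested. With replicate 4 alone (no test) the log2 fold changes ran from 2.06 (*HHT2*) to 4.70 (*HTB2*), and with replicate 5 alone from 0.92 (*HHT2*) to 1.96 (*HHF1*).

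TL-seq counted the 5′ ends of the same mRNAs, in normalized reads of the start site cluster of each gene, which serve to compare libraries and not genes. In replicates 1, 3 and 5, 8 of 9 genes were higher at 4 h than at 2 h at an adjusted p under 0.1, where 23.5% of all clusters were. *HTB2* was at 13254, 24587 and 30051 normalized reads at 4 h, against 4904, 1359 and 7931 at 2 h, which is a log2 fold change of 2.51 (SE 0.58, adjusted p = 0.0077, limma). *HTZ1* was at 2351, 2198 and 3883 normalized reads at 4 h, against 425, 363 and 1114 at 2 h, a log2 fold change of 2.29 (SE 0.42, adjusted p = 0.0021, limma). Neither gene had libraries that overlapped between the times. *HHF1* (2.42), *HHT1* (1.55), *HHO1* (1.35), *HTB1* (1.30), *HTA1* (1.18) and *HHT2* (0.90) were higher too. *HTA2* was not called, at 1919.5, 2796 and 8531 normalized reads at 4 h, against 1382, 413 and 2974 at 2 h (1.58, adjusted p = 0.11, limma). In each numbered pair *HTA2* was higher at 4 h, and with the replicate number as a block it was called (adjusted p = 0.0038). Without replicate 3, *HHT1* (0.78) and *HHT2* (0.65) were not called, with adjusted p of 0.199 and 0.22.

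The second TL-seq table held 6 of the genes in replicates 4 and 5, and the libraries of replicate 5 are in both tables. All 6 were higher at 4 h, where 20.5% of its clusters were. *HTB2* was at 16731 and 16151 normalized reads at 4 h, against 635 and 4296 at 2 h (3.31, adjusted p = 0.029, limma). As in the RNA, replicate 5 at 2 h was the higher of these 2 h libraries for each of the 6 genes. The others had log2 fold changes of 2.66 (*HTA2*), 2.17 (*HTZ1*), 2.08 (*HTA1*), 2.03 (*HTB1*) and 1.80 (*HHO1*).

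**Figure D3:**
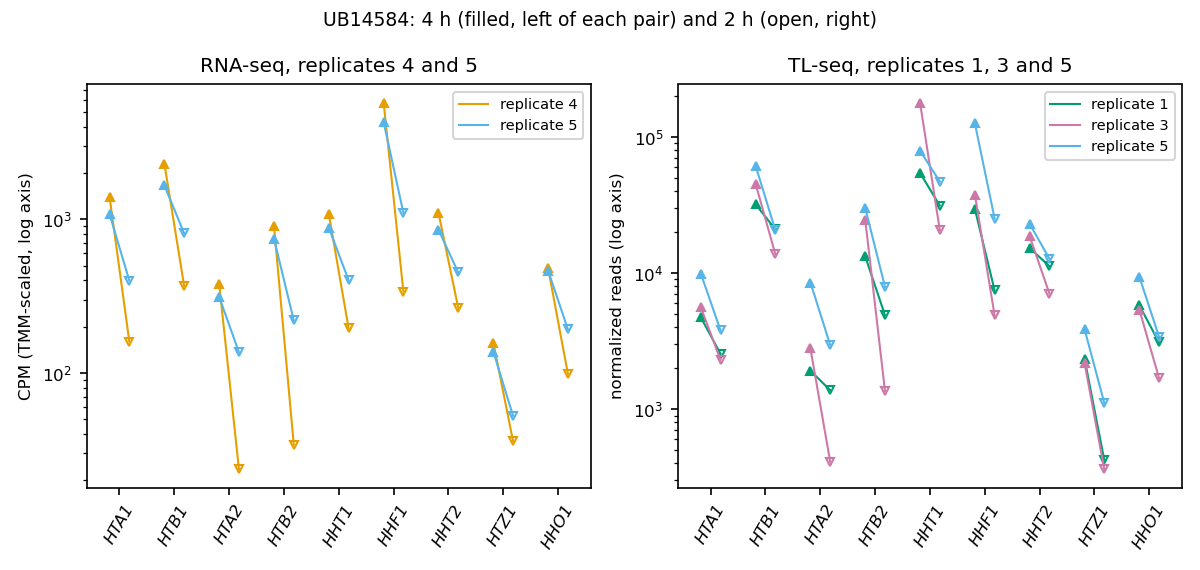
CPM from RNA-seq (left, replicates 4 and 5) and normalized reads from TL-seq (right, replicates 1, 3 and 5) of the histone genes in UB14584 on log axes, with 4 h (filled) left of 2 h (open) in each pair and a line for each replicate number. All lines fall toward 2 h, and the 2 h points of replicate 5 lie above those of replicate 4 in the RNA, at 219.6 against 34.1 CPM for *HTB2*.

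The stage of the cultures was followed by lists of genes. The early meiotic list (*IME2*, *SPO11*, *REC8*, *HOP1*, *ZIP1*, *DMC1*, *RED1* and *MEI4*) had 0 of 8 genes called by edgeR in T99N at 3 h against 2 h (1 higher and 1 lower at an unadjusted p under 0.05, and by DESeq2 as well) and 3 higher at 4 h against 2 h, with a median log2 fold change of 0.41. In WT 8 of 8 genes rose at 3 h against 2 h, with a median of 3.75. Of the middle meiotic list (*NDT80*, *CLB1*, *SPS1*, *SMK1*, *SPO20* and *SPR3*), 1 of 6 was higher and 2 lower at 4 h against 2 h in WT. Over all features 34.2% were higher and 31.0% lower, so that the WT counts were near or below those shares. In UB14584 3 were higher, where 26.6% of all features were, and 1 lower.

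The S-phase list holds 10 genes of DNA replication and S phase (*POL1*, *POL2*, *POL30*, *RFA1*, *RNR1*, *CDC21*, *CLB5*, *CLB6*, *CDC45* and *MCM2*). Before copper, from 0 h to 2 h, its median log2 fold change was 1.32 in T99N (replicate 1 at 2 h included) and 0.96 in WT. The medians of the 9 histone genes were −0.80 and −0.32. In WT 9 of 10 S-phase genes were called higher at 2 h, where 25.1% of all features were. At 4 h against 2 h, 10 of 10 S-phase genes were higher in T99N (median 1.18), whereas 3 of 9 histone genes were (median 0.18). Over all features 11.2% were higher. Without T99N replicate 1 at 2 h the counts were 10 of 10 (median 1.65) and 2 of 9 (median 0.26), and without replicate 2 of every group 4 of 10 S-phase genes and none of the histone genes were called. *POL1* averaged 314 ± 12.5 CPM in T99N at 4 h and 120.5 ± 73.8 CPM at 2 h (SD, n = 3 each). *CLB5* averaged 121 ± 15.7 CPM in T99N at 4 h and 39.9 ± 5.62 CPM at 2 h (SD, n = 3 each), a log2 fold change of 1.60 (SE 0.17, adjusted p = 5.2e-06, edgeR). At 3 h against 2 h, 1 of 10 S-phase genes was higher in T99N (*POL1*, log2 fold change 0.82), where 1.17% of all features were. At an unadjusted p under 0.05 there were 8, and DESeq2 called 5. Without T99N replicate 1 at 2 h, 9 of 10 were called higher. The difference between the 2 lists within T99N was not tested.

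In WT, from 2 h to 3 h all 10 S-phase genes rose (median log2 fold change 2.71), where 35.0% of all features did. From 3 h to 4 h all 10 fell (median −1.68), where 18.1% of all features did. Over that second hour 3 of the 9 histone genes fell, with a median of −0.34. *POL1*, the catalytic subunit of DNA polymerase alpha, averaged 178 ± 16.4 CPM at 4 h and 847 ± 39.8 CPM at 3 h in WT (SD, n = 3 each). *CDC21*, thymidylate synthase, averaged 90.6 ± 3.30 CPM at 4 h and 370.0 ± 18.7 CPM at 3 h in WT (SD, n = 3 each). *CLB5* and *CLB6*, the S-phase cyclins, and *POL2*, the catalytic subunit of DNA polymerase epsilon, had log2 fold changes of −0.66, −1.10 and −1.33 between 3 h and 4 h in WT. The genes named here were picked for their change in WT from 2 h to 4 h, which shares the 4 h libraries with this comparison.

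The strains were compared over the same lists. Before copper, 1 of 10 S-phase genes was higher in T99N than in WT at 0 h (median 0.05), where 18.4% of all features were. At 2 h the S-phase median was 0.31, with T99N replicate 1 included. At 3 h, 10 of 10 S-phase genes were lower in T99N than in WT (median −1.73), as were 8 of 9 histone genes and 29.4% of all features. At 4 h, 0 of 10 S-phase genes were lower by edgeR (0 at an unadjusted p under 0.05 and 0 by DESeq2) and 6 were higher (median 0.61), whereas 8 of 9 histone genes were lower (median −1.88). Over all features 30.2% were lower and 22.5% higher in T99N at 4 h. Without TMM 3 S-phase genes were higher at 4 h, and 8 histone genes were lower. The interaction from 2 h to 4 h was called higher at 2 and lower at 1 of the S-phase genes (median −0.00), or higher at 6 without T99N replicate 1 at 2 h (median 0.66), and lower at 7 of 9 histone genes (median −1.07). It was called lower at 20.6% of all features in the fit of all 24 libraries. The share of all features called higher is not given here, so the counts of S-phase genes called higher have no background.

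The last list held 20 genes, which were regulators, chaperones and modifiers of histones and the centromeric H3 variant *CSE4*. In T99N, where 1.17% of all features rose and 3.35% fell between 2 h and 3 h, edgeR called 0 of the 20 (7 were higher at an unadjusted p under 0.05, and DESeq2 called 1). Without replicate 1 at 2 h, however, 7 were called higher. At 4 h against 2 h 8 were higher in T99N, where 11.2% of all features were, or 1 without replicate 2 of every group.

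In WT 18 of 20 rose from 2 h to 3 h (median 1.25), where 35.0% of all features did, and 11 fell from 3 h to 4 h, where 18.1% did. At 4 h against 2 h 16 were higher in WT and 1 lower, where 34.2% and 31.0% of all features were. *CSE4*, the centromeric H3 variant, averaged 83.7 ± 5.11 CPM in T99N and 162 ± 22.4 CPM in WT at 4 h (SD, n = 3 each), given without a test since the genes named here were picked for their change in WT from 2 h to 4 h. *ASF1*, an H3-H4 chaperone, averaged 73.7 ± 4.01 CPM in T99N and 209.5 ± 64.6 CPM in WT at 3 h (SD, n = 3 each), with a log2 fold change of −1.51 (adjusted p = 3.6e-05, edgeR). At 4 h the order of the strains was the reverse, with *ASF1* at 112 ± 5.64 CPM in T99N and 72.3 ± 19.9 CPM in WT (SD, n = 3 each), given without a test. *RTT109*, which acetylates H3, *CAC2*, a subunit of the chaperone CAF-1, and *HIR1*, a subunit of the HIR repressor, had log2 fold changes of 1.92, 1.80 and 1.46 in WT from 2 h to 3 h, a comparison that shares the 2 h libraries with that choice. The lower gene at 4 h against 2 h in WT was *HIR3* (−0.41), another HIR subunit, named after its value was seen. Between the strains, 13 of the 20 were higher in T99N than in WT at 0 h (median 0.44), where 18.4% of all features were. At 2 h the median was 0.36. At 3 h 13 of the 20 were lower and 2 higher in T99N than in WT, where 29.4% of all features were lower and 27.6% higher. At 4 h 3 were lower and 4 higher, where 30.2% and 22.5% of all features were.

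**Figure D4:**
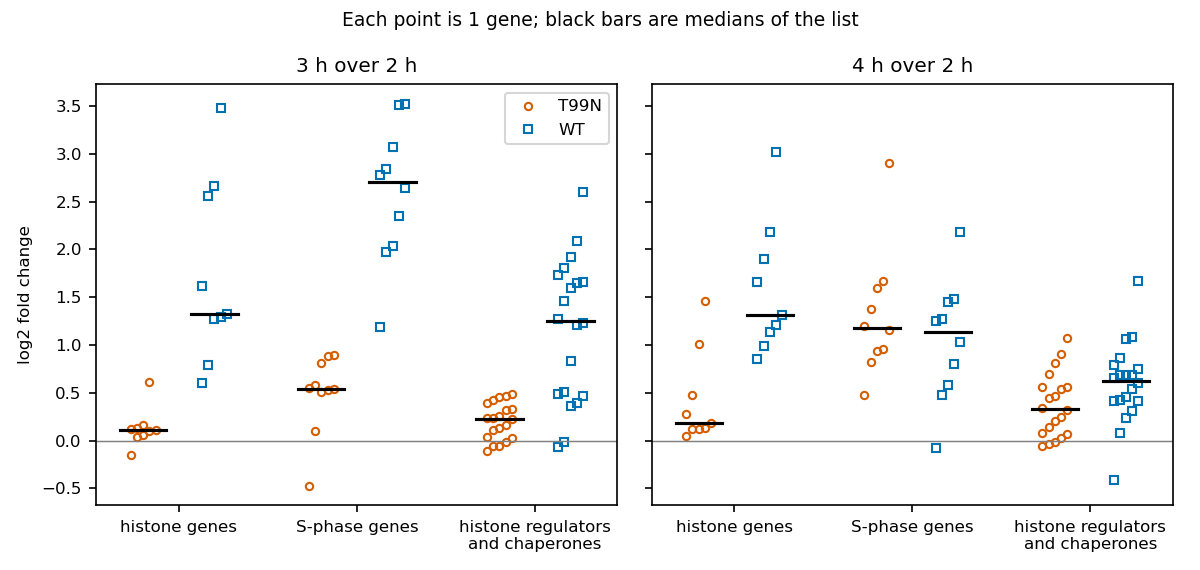
Log2 fold change of each gene of 3 lists from 2 h to 3 h (left) and from 2 h to 4 h (right) in T99N (circles) and WT (squares), with black bars for the medians. At 4 h against 2 h the S-phase medians were 1.18 in T99N (1.65 without T99N replicate 1 at 2 h) and 1.14 in WT, and the histone medians were 0.18 in T99N and 1.32 in WT.

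The genes outside the list whose profile was most like that of the core histone genes were found by Pearson correlation of log2 CPM with the mean standardized profile of the 7 measured core genes, over 24 libraries that share strains and times. These were *KEX2* (r = 0.952), a protease of the late Golgi, *ARP7* (0.933), a subunit of chromatin remodellers, *FAT1* (0.931), which acts in fatty acid uptake, *HSH155* (0.921), a splicing factor, and *KIN4* (0.918), a kinase of the spindle position checkpoint. *KEX2* averaged 80.2 CPM in T99N and 154 CPM in WT at 3 h. Of the members themselves, *HHF1* (0.987) and *HTA2* (0.974) lay nearest to the profile, to which they contribute, and *HHT2* (0.549) and *HTZ1* (0.589) farthest. These are descriptions across libraries that fall into 8 groups.

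Ume6 binding was read from ChIP-seq peak lists of strain UB3301 (*UME6-3V5*, with *CUP1* constructs at *IRT1* and *IME4*, grown to saturation in BYTA medium and thus not in SPO), with 3 replicates. A gene counted as bound where a peak summit lay within 300 bp of the midpoint of its start site cluster, with a fold enrichment over 4 in at least 2 of 3 replicates. This held for 2 of 9 histone genes, *HHT2* and *HHF1*, and for 14.2% of all 5038 clusters. At *HHT2* the summits (XIV:604073 to XIV:604078) had fold enrichments of 22.2, 19.98 and 14.8, at 281 to 286 bp from the cluster. At *HHF1* they were at 4.29, 4.31 and 3.17, 201 to 206 bp away in the interval that it shares with *HHT1*, from whose cluster they were 339 to 344 bp away. The *HTA2*-*HTB2* interval held summits of 4.37, 3.24 and 3.61, and the *HTB1*-*HTA1* interval 2.93 and 2.41 in replicates 1 and 2. The strongest summits near any histone gene lay upstream of *HTZ1* (XV:285106 to XV:285110), at 37.8, 27.8 and 26.6, but 344 to 348 bp from its cluster and so outside the window. The count thus turned on the rule, with 0 genes at 150 bp (where 7.07% of clusters were bound), 5 at 500 bp (20.5%), 5 with any peak (21.1%), and 1 (*HHT2*) when all 3 replicates were required (10.3%) or when replicate 1 (13.1%) or 2 (10.6%) was left out.

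Nucleosomes were read from a pooled MNase-seq table of UB14584 (4 libraries at each time, with no spread between replicates and so no test). Over all 67745 positions the median summit signal was 1105 at 4 h and 1105 at 2 h, the median of the ratio of 4 h to 2 h was 0.96, and 5% of the positions had a ratio under 0.63. Between *HTA2* and *HTB2* the 3 nucleosomes had signals of 584, 294 and 159 at 4 h, against 1619.6, 343 and 771 at 2 h. Ratios of the outer pair were 0.36 and 0.21, below that lowest 5%. Between *HHF1* and *HHT1* signals were 969, 148 and 609 at 4 h, against 1554.5, 205 and 1024 at 2 h. Between *HTB1* and *HTA1*, signals were 759, 207.5, 1162, 603 and 903 at 4 h, against 1466.5, 298, 1132, 716 and 1292 at 2 h. Upstream of *HHT2* they were 723 and 345 at 4 h, against 1105 and 807 at 2 h. Ratios under 0.63 were also found at the outer nucleosomes of the *HHF1*-*HHT1* interval (0.62 and 0.59), at 1 of the *HTB1*-*HTA1* interval (0.52), at 1 upstream of *HHT2* (0.43) and at 1 upstream of *HHO1* (0.54).

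Upstream of *HTZ1* the signals were 1762, 1271 and 151 at 4 h, against 2014, 1387.5 and 211.5 at 2 h, with ratios of 0.71 to 0.92. Upstream of *HHO1* they were 114, 1531 and 67.6 at 4 h, against 155, 2072 and 124 at 2 h, with ratios of 0.54 to 0.74. Within the coding regions the ratio of the mean signals was lowest at *HTA2* (0.52) and *HTB2* (0.55), then *HHF1* (0.63) and *HHT1* (0.76), and lay at 0.84 to 0.98 at *HHO1*, *HTB1*, *HTA1* and *HHT2* and at 1.18 at *HTZ1*.

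**Figure D5:**
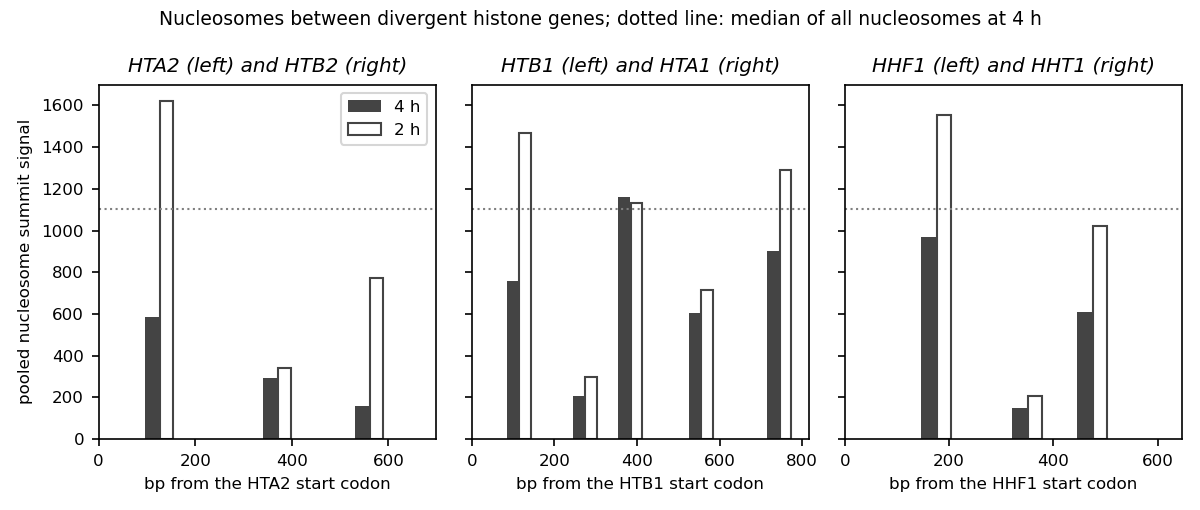
Pooled nucleosome summit signal at 4 h (filled) and 2 h (open) against the distance from the start codon of the left gene, in the 3 intervals between divergent histone genes, with the dotted line at the median of all nucleosomes at 4 h (1105). In the *HTA2*-*HTB2* interval the outer nucleosomes stood at 584 and 159 at 4 h, against 1619.6 and 771 at 2 h.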

How the data were processed

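Poly(A) RNA was quantified by the authors with salmon against features of the SK1 annotation, whose strand setting is not given in the sources used here. The deposited estimated counts (96.8% whole within 0.01) were rounded, and the deposited TPM values served for levels. All 24 WT and T99N libraries were fitted together in edgeR 4.0.16 (R 4.3.3) by strain and time, with TMM, its default filter on low counts (5488 of 5498 features kept) and the quasi-likelihood test. The Benjamini-Hochberg adjustment ran over all features, with calls at an adjusted p under 0.05. Each SE of an edgeR log2 fold change was taken as the absolute change divided by the square root of its F statistic. UB14584 was fitted alone. TL-seq values, deposited as a normalized signal (reads per cluster divided by DESeq2 size factors, aligned with STAR and clustered with CAGEr by the authors), were tested with limma 3.58.1 on log2(value + 1), with calls at an adjusted p under 0.1. Reads recovered from them were whole for 100% of values, and edgeR on these called 8 and 6 members. TL-seq libraries held 1211265 to 8243174 reads. The numbers of TL-seq replicates 1, 3 and 5 pair the libraries (correlations of deviations 0.16, 0.17 and 0.39).

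Fold enrichment, a ratio to input, and the −log10 p- and q-values in the peak lists were deposited as macs2 gave them for each replicate. The authors pooled MNase-seq libraries in DANPOS, which gave the deposited signal and a fuzziness score that is not reported. Deposited columns of log2 fold changes and p-values of the authors' own tests were not used. The members and lists were chosen with earlier results of these data known, and regulators and S-phase genes were named as the 5 with the largest change called from 2 h to 4 h in WT. DESeq2 1.42.0, no TMM, no filter, other pseudocounts, a replicate block and leaving out replicates were tried, as were, chosen after seeing the data, edgeR on the recovered reads, a replicate block within WT at 3 h and 4 h (whose same-numbered libraries deviated together, correlations 0.39, 0.60 and 0.82) and list counts under the other settings. The tests were tested on simulated data first. Sequence motifs were not analysed here.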

Additional observations from a re-analysis of the deposited data

Results flagged for a closer look

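The change of the histone genes after copper differed between the strains by the interaction term (T99N minus WT, log2, edgeR quasi-likelihood test, adjusted p under 0.05). From 2 h to 3 h it was −2.87 for *HTB2*, −2.54 for *HTA2*, −2.52 for *HHF1*, −1.52 for *HHT1*, −1.48 for *HHT2*, −1.21 for *HTA1*, −1.16 for *HTB1* and −0.63 for *HHO1*. From 2 h to 4 h it was −2.06 for *HHF1*, −1.56 for *HTB2*, −1.48 for *HTZ1*, −1.10 for *HTA1*, −1.07 for *HTB1*, −0.90 for *HTA2* and −0.84 for *HHO1*. The interaction of the S-phase genes from 2 h to 4 h had a median of −0.00, or of 0.66 without T99N replicate 1 at 2 h, where 6 of 10 were called higher. The share of all features called higher in that fit is not given here. Of the times sampled, their summed CPM was highest at 4 h in T99N (2940 to 3088) and at 3 h in WT (4849 to 5707).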

How the results depend on the processing

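Over 125 results on the histone genes, 997 values under other settings were computed. Of these 882 kept direction and call, 61 lost the call, 17 gained it, 33 moved in value and 4 changed sign. The sign changes were *HHT2* in T99N at 3 h over 2 h (0.04 without TMM, and −0.33 to 0.0086 on leaving out each replicate), *HHT2* in T99N over WT at 4 h (−0.47 to 0.10 on leaving out each replicate) and *HHT1* in the interaction from 2 h to 4 h (−1.46 to 0.10), whose values on the other side of 0 were not called, and the cause was not tested. Without TMM the count of members called higher was 0 in WT at 2 h over 0 h, 1 in WT at 4 h over 3 h and 1 in T99N at 4 h over 3 h. Without T99N replicate 1 at 2 h, 1 member was called higher in T99N at 3 h over 2 h. Leaving out each replicate in turn gave 4 to 6 members lower in T99N at 2 h over 0 h, 0 to 1 higher at 3 h over 2 h, 0 to 2 at 4 h over 2 h and 0 to 1 at 4 h over 3 h. In WT it gave 1 to 3 lower and 0 to 1 higher at 2 h over 0 h, 9 to 9 higher at 3 h over 2 h, 8 to 9 at 4 h over 2 h, and 1 to 2 lower and 1 to 2 higher at 4 h over 3 h. Between the strains it gave 0 to 5 lower and 0 to 1 higher at 0 h, 4 to 7 lower at 2 h and 8 to 8 at 3 h and 4 h, and for the interaction 6 to 7 lower at 3 h and 4 to 8 at 4 h. In TL-seq it gave 6 to 9 higher, and for Ume6 1 to 2 bound genes. The Ume6 count was 5 with any peak (21.1% of all clusters), 0 at 150 bp (7.07%), 5 at 500 bp (20.5%) and 1 when all 3 replicates were required (10.3%). With the replicate number as a block, *HTA2* in TL-seq (1.58, adjusted p = 0.0038) and *HTZ1* in the interaction from 2 h to 3 h (−0.49, adjusted p = 0.041) were called, and no other call of a member changed under that block. Deviations of same-numbered RNA libraries correlated over 0.1 in 13 of 18 WT pairs and 5 of 18 T99N pairs, so the numbers were not taken as pairs over the whole course. All 3 pairs of WT at 3 h and 4 h were over 0.1, and a replicate block within these groups, chosen after seeing the data, gave 5 members lower in WT at 4 h over 3 h, with *HTB2* (−0.50) and *HHT2* (−0.36) added. Without a replicate each, the 4 h values of UB14584 RNA and of the second TL-seq table rest on 1 library at each time and have no test.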
